A study of Mus musculus with 12 samples.

Results

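Genes of microglia and macrophages were examined in the mouse retina after MOG35-55 peptide immunization, a model of multiple sclerosis in which optic neuritis develops, with and without needling. The list held 35 gene symbols in 3 classes. Of these, 9 were homeostatic microglia genes, 13 were pan-myeloid genes shared by microglia and macrophages, and 13 were disease-associated genes. Members were found by symbol among the 54532 gene identifiers of the tables. A row was found for 34 of them, and 33 had enough counts to be tested. Axl2 is not a mouse gene symbol and had no row. Itgax, which encodes the integrin CD11c, had too few counts. All mice were wild type C57BL/6 aged 13 weeks. SHAM were sham controls, MOG had been immunized, and GB20 and GV16 had been immunized and then needled at the acupoint GB20 or the control acupoint GV16, with 3 retinal libraries in each of the 4 groups. Immunization used complete Freund's adjuvant and pertussis toxin per the study's methods, which do not say whether SHAM mice received them. Anaesthesia is described only for the needled mice, so needling and anaesthesia cannot be told apart. The study's methods describe a few mice per group, repeats of the whole experiment and RNA obtained per group. They do not say outright whether a library pools mice, so p-values measure the spread between these libraries.

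Microglia are the resident macrophages of the retina and survive on signals through the receptor CSF1R. In the resting state they express purinergic receptors such as P2RY12 and the surface protein TMEM119. In models of neurodegeneration and demyelination, microglia that contact damaged neurons or myelin reduce these homeostatic genes and express a disease-associated set. The switch depends in part on the lipid-sensing receptor TREM2 and its adaptor DAP12, encoded by Tyrobp. Most myeloid genes are driven by PU.1, the transcription factor encoded by Spi1, which binds a purine-rich core with the letters GAGGAA.

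Promoter windows of Ctss, Clec7a and Cd300c2, members upregulated after immunization, are shown because PU.1 itself is a member. Csf1r was also upregulated, but no window was given for it. Each window runs from 250 bases before to 10 bases after the gene's start, 5′ to 3′ on the gene's strand, with the core GAGGAA or its reverse complement TTCCTC in capitals. Sequences are from RefSeq on GRCm38.p6. Ctss lies on the plus strand of chromosome 3, with the window at chr3:95526536-95526795. Clec7a lies on the minus strand of chromosome 6, with the window at chr6:129472770-129473029. Cd300c2 lies on the minus strand of chromosome 11, with the window at chr11:115001871-115002130.
Ctss: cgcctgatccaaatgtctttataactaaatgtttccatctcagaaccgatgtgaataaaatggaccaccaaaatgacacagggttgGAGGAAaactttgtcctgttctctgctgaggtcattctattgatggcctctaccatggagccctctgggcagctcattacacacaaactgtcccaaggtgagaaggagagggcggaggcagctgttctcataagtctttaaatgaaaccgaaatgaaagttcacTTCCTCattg
Clec7a: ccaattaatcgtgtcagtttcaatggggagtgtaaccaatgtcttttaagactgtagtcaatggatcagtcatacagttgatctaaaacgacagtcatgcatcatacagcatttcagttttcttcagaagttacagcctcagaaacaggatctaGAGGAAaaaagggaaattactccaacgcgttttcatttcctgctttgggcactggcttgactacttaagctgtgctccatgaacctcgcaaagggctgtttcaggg
Cd300c2: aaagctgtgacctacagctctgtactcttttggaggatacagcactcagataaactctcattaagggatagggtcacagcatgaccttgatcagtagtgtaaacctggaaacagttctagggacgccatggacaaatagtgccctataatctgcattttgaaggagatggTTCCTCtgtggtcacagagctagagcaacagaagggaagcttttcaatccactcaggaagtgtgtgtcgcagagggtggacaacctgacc
The Ctss window held 2 matches, the first beginning 164 bases before the start and the other at the start itself on the opposite strand. The Clec7a match began 96 bases before the start, and the Cd300c2 match 80 bases before it on the opposite strand. A window was given for 27 of the members, and 14 of them (51.9%) held the core on either strand, against 24% of 27025 genes with a window. By class, the core was in 2 of 5 homeostatic, 8 of 12 pan-myeloid and 4 of 10 disease-associated windows. A match of these letters is a description of the window and not a binding site.

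The libraries held between 15860278 and 19194280 counts assigned to genes. Counts were divided by TMM-scaled library sizes to give CPM values. Most members were low in whole retina, where rod transcripts dominate. FPKM values, which are also divided by gene length, were used to compare genes with each other. In SHAM, Ctsd was at 56.0 ± 3.72 FPKM (SD, n = 3), Ctsz at 17.7 ± 2.34, Cd9 at 17.5 ± 2.69 and Cd63 at 10.6 ± 2.20. These 4 disease-associated members encode lysosomal proteases and tetraspanins that many cell types express. Among members more restricted to myeloid cells, Ctss was highest at 6.11 ± 1.06 FPKM, followed by Fcer1g at 2.45 ± 0.664 and Tyrobp at 1.55 ± 0.820. The homeostatic members were lower per length than Ctss, Fcer1g and Tyrobp, with Csf1r at 1.24 ± 0.149 FPKM and P2ry12 at 0.906 ± 0.209 FPKM. From Fcer1g down, the mean ± SD ranges of neighbours in this order overlapped, while that of Ctss lay above that of Fcer1g. Apart from Ctss and Fcer1g, the pan-myeloid members had means below that of P2ry12 in SHAM, with Ptprc at 0.0362 ± 0.0180 FPKM. Itgax was at 0.00809 ± 0.0140 FPKM in SHAM.

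To ask whether immunization changed these genes, MOG was compared with SHAM. Ctss, Csf1r, Clec7a and Cd300c2 were upregulated, and no member was downregulated (edgeR quasi-likelihood test, Benjamini-Hochberg adjusted p under 0.05 over 18299 genes). The call rate over all genes was 1.34%, and 0.568% for upregulated genes. The log2 fold change was above 0 in 30 of the 33 members, against 49.5% of all genes tested. The median log2 fold change of the members was 0.61, against -0.0023 over all genes. In 13 members every MOG library was above every SHAM library, which held for 7.87% of all genes, and in 0 members was every MOG library below, against 8.34%. The unadjusted p was under 0.05 in 15 members, against 13% of all genes. Spi1, Itgam, Clec7a, Cst7 and Cd300c2 passed the expression filter only with the MOG libraries counted. Among the other 28 members, 2 were called, 25 had a log2 fold change above 0 with a median of 0.48, 9 had separate libraries, and 12 had an unadjusted p under 0.05. The count of 4 was 1 without MOG replicate 3, and 2 without SHAM replicate 1 or either other MOG library. In bulk retina, more cells of a type and more RNA per cell cannot be told apart. Summed markers of the pigment epithelium and choroid were higher in every MOG and GB20 library than in SHAM, while GV16 overlapped with SHAM. They ran from 20.3 to 27.9 CPM in SHAM, from 36.9 to 51.5 CPM in MOG, from 39.2 to 46.5 CPM in GB20, and from 23.5 to 63.1 CPM in GV16. Ttr and Rgr had the highest means among them. Of these 11 marker genes, 9 were tested and 0 were called in MOG vs. SHAM, and their part in the members' differences was not tested. Of 9 Müller glia and astrocyte markers, 2 were upregulated in MOG vs. SHAM. Gfap, the intermediate filament gene of reactive glia, was at 20.6, 26.8 and 21.9 CPM in SHAM against 54, 58.3 and 52.4 CPM in MOG (log2 fold change 1.25 ± 0.172, adjusted p = 0.00287 by edgeR), and Aqp4, a water channel gene, differed by 0.46 ± 0.0707 on the log2 scale (adjusted p = 0.000812 by edgeR). The 9 markers summed to between 3550.2 and 3768.3 CPM in SHAM and between 3231.6 and 3607.8 CPM in MOG. Glul was the largest part of that sum, averaging 2081.4 CPM in SHAM and 1743.1 CPM in MOG, and was not called. The part of these 9 markers in the members' differences was not tested either.

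**Figure D1:**
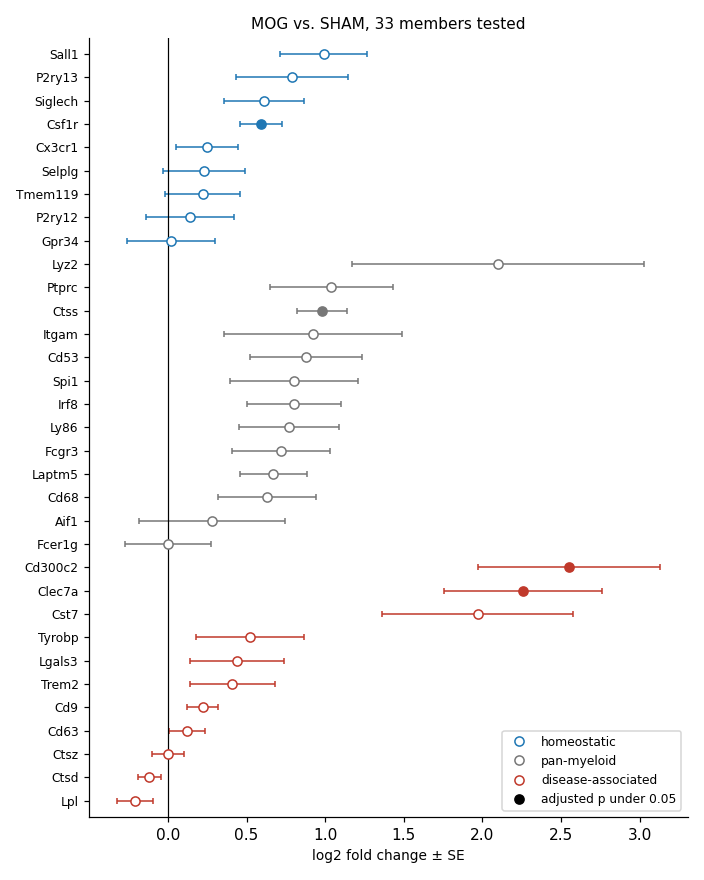
Log2 fold change ± SE (x axis) of the 33 members tested (y axis) in MOG vs. SHAM, coloured by class, with filled points for adjusted p under 0.05. The filled points are Csf1r, Ctss, Cd300c2 and Clec7a, and 30 of 33 points lie above 0.

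Among homeostatic genes, Csf1r, the receptor for the growth factors CSF1 and IL-34, was upregulated. Its level was 6.78, 6.17 and 5.33 CPM in SHAM and 10, 8.17 and 9.25 CPM in MOG. Every MOG library was above every SHAM library. The difference was 0.59 ± 0.135 on the log2 scale with an adjusted p of 0.0269 by edgeR, where ± gives the SE here and for each log2 fold change that follows. Part of the Csf1r exons (15.1%) overlaps Hmgxb3 on the other strand, and the strand setting of the counting is not given. The call was lost in 7 of 23 alternative fits, among them those without replicate 3 of SHAM or replicate 1 or 3 of MOG, and the adjusted p reached 0.134.

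The groups also did not overlap for Sall1, Siglech and P2ry13, which did not pass the test. Sall1, a transcription factor of microglial identity, was at 0.848, 1 and 1.33 CPM in SHAM against 2.35, 1.97 and 2.04 CPM in MOG. Its log2 fold change was 0.99 ± 0.278 with an adjusted p of 0.0878 by edgeR. Siglech, a sialic acid-binding lectin, differed by 0.61 ± 0.255 on the log2 scale (adjusted p = 0.30 by edgeR), and the ADP receptor gene P2ry13 by 0.79 ± 0.357 (adjusted p = 0.345 by edgeR). The other 5 homeostatic members overlapped between the groups. P2ry12, the ADP receptor that guides microglial processes, was at 1.94, 2.94 and 2.11 CPM in SHAM against 3.58, 1.29 and 2.76 CPM in MOG, so that MOG held both its highest and its lowest value. Tmem119, the fractalkine receptor gene Cx3cr1, the orphan receptor gene Gpr34 and the selectin ligand gene Selplg had log2 fold changes between 0.02 and 0.25. No homeostatic member had a log2 fold change below 0.

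Ctss, which encodes cathepsin S, a lysosomal protease of antigen processing, was the upregulated pan-myeloid member. Its level was 8.48, 9.76 and 6.88 CPM in SHAM and 14.4, 16.9 and 18.3 CPM in MOG. The increase was 1.98-fold (log2 fold change 0.98 ± 0.157, adjusted p = 0.0015 by edgeR), and the lowest MOG library was above the highest SHAM library. This was the only member called in MOG vs. SHAM under all 23 alternative fits, with log2 fold changes from 0.86 to 1.12. The gene lies at chr3:95526786-95556403 on GRCm38, and its exons overlap no other gene.

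The groups were also separate for Laptm5, Irf8, Spi1, Cd53 and Lyz2, none of which passed the test. Laptm5, a lysosomal transmembrane protein gene of haematopoietic cells, was at 1.94, 2.18 and 2.66 CPM in SHAM against 3.53, 3.44 and 3.84 CPM in MOG (log2 fold change 0.67 ± 0.215, adjusted p = 0.16 by edgeR). Irf8, a myeloid transcription factor gene, was at 1.45, 1.94 and 1.17 CPM in SHAM against 2.63, 2.77 and 2.52 CPM in MOG (log2 fold change 0.80 ± 0.30, adjusted p = 0.248 by edgeR). Spi1, the gene of PU.1, was at 0.666, 0.412 and 0.444 CPM in SHAM against 0.895, 1.04 and 0.721 CPM in MOG (log2 fold change 0.80 ± 0.408, adjusted p = 0.409 by edgeR). Cd53, a leukocyte tetraspanin gene, differed by 0.88 ± 0.357 on the log2 scale (adjusted p = 0.281 by edgeR). Lyz2, the lysozyme gene of myeloid cells, was at 1.46, 9.95 and 1.5 CPM in MOG against 0.908, 1.41 and 0.666 CPM in SHAM. That difference rested on MOG replicate 2, since the log2 fold change of 2.10 ± 0.93 was 0.58 without it.

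In the remaining pan-myeloid members the groups overlapped. Ptprc, the gene of the leukocyte antigen CD45, had a log2 fold change of 1.04 and was at 0.484, 0.47 and 1.05 CPM in SHAM against 1.40, 1.90 and 0.901 CPM in MOG. The integrin gene Itgam, the Fc receptor genes Fcgr3 and Fcer1g, the MD-1 gene Ly86, the lysosomal gene Cd68 and the IBA1 gene Aif1 had log2 fold changes between -0.00 and 0.92. Itgam shares 68.7% of its exon bases with another gene on the same strand, so its counts are uncertain. The IBA1 gene Aif1, a common stain for microglia, was low in every group, averaging 0.386 ± 0.074 CPM in SHAM against 0.476 ± 0.122 CPM in MOG.

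Clec7a and Cd300c2 were the disease-associated members that were upregulated, both from a few counts per library and both among the members that passed the filter only with MOG counted. Clec7a, the gene of the pattern receptor dectin-1, was at 0.242, 0.118 and 0.277 CPM in SHAM against 0.84, 1.41 and 0.901 CPM in MOG. Its counts were 4, 2 and 5 in SHAM and 15, 23 and 15 in MOG. This was a log2 fold change of 2.26 ± 0.502 (adjusted p = 0.0206 by edgeR). Cd300c2, a gene of the CD300 family of immunoglobulin-like receptors, had 1, 1 and 5 counts in SHAM and 14 in each MOG library. That corresponded to 0.0605, 0.0588 and 0.277 CPM in SHAM against 0.784, 0.86 and 0.841 CPM in MOG, with a log2 fold change of 2.55 ± 0.581 (adjusted p = 0.0256 by edgeR). All MOG libraries were above all SHAM libraries for both genes. The Clec7a call was lost in 6 of 21 alternative fits, among them those without replicate 1 or 2 of SHAM or replicate 2 or 3 of MOG and DESeq2 on the 6 libraries compared, and the adjusted p reached 0.166. The Cd300c2 call was lost in 5 of 20, those without replicate 1 or 2 of SHAM or without any 1 MOG library, and the adjusted p reached 0.143. Missing from these totals are fits that gave no adjusted p. Both genes were left untested by the 1 CPM filter and got none from DESeq2 on all 12 libraries, and Cd300c2 got none from DESeq2 on the 6 libraries compared. DESeq2 thus called neither gene.

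Cst7, the cystatin F gene, was also separate between the groups but did not pass the test, with 4, 0 and 4 counts in SHAM and 10, 11 and 11 in MOG (log2 fold change 1.97 ± 0.606, adjusted p = 0.134 by edgeR). Itgax was not tested, with 0, 2 and 0 counts in SHAM and 4, 3 and 5 in MOG. Trem2 was at 1.33, 1.59 and 1.22 CPM in SHAM against 1.90, 1.29 and 2.28 CPM in MOG, and its adaptor gene Tyrobp at 0.484, 1.59 and 1.05 CPM in SHAM against 1.40, 1.47 and 1.62 CPM in MOG. Neither gene was separate between the groups. The galectin-3 gene Lgals3 overlapped as well, averaging 1.39 ± 0.288 CPM in SHAM against 1.88 ± 0.429 CPM in MOG.

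The 5 disease-associated members at 10 CPM or more in SHAM, grouped after the values were seen, were the lipoprotein lipase gene Lpl, the cathepsin genes Ctsz and Ctsd, and the tetraspanin genes Cd9 and Cd63. Their log2 fold changes in MOG vs. SHAM lay between -0.21 and 0.22, with a median of 0.0014, and 0 of 5 were called. Ctsd averaged 133 ± 8.73 CPM in SHAM against 122 ± 6.95 CPM in MOG, and 34.4% of its exon bases are shared with another gene on the same strand. Lpl averaged 17.2 ± 1.08 CPM in SHAM against 14.9 ± 2.62 CPM in MOG.

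**Figure D2:**
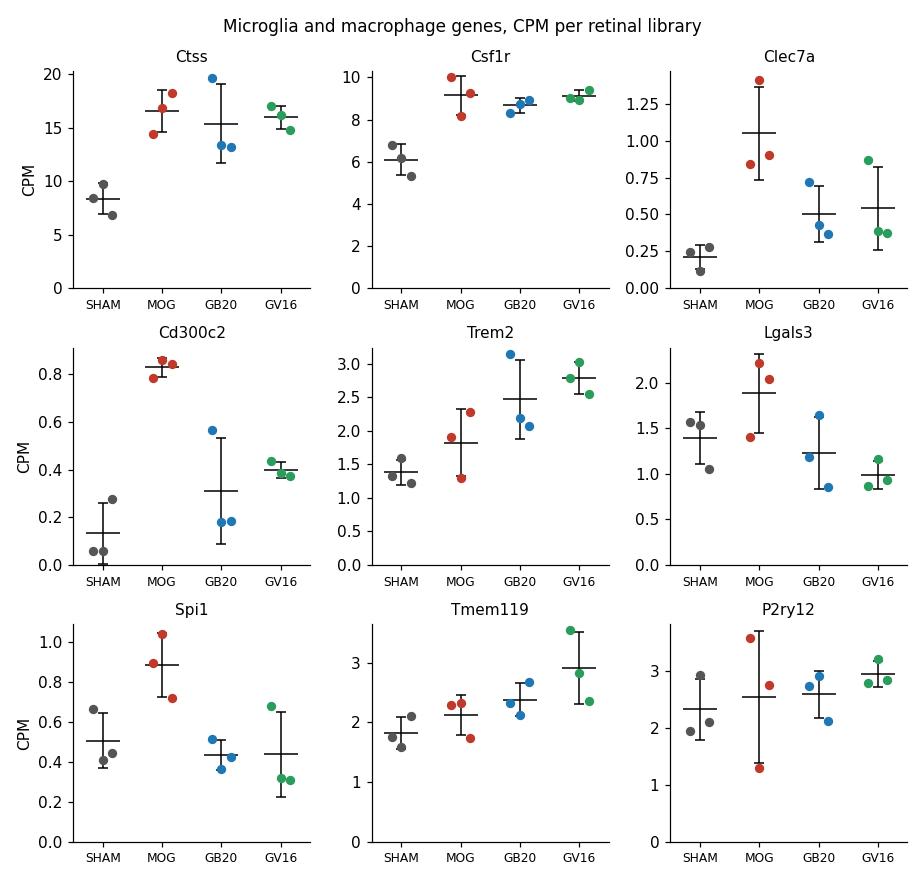
CPM per library (y axis, a scale of its own in each panel) by group (x axis) for 9 members, with points for libraries and bars for the mean ± SD (n = 3). Ctss and Csf1r are higher in the 9 immunized libraries than in SHAM, Clec7a and Cd300c2 have their highest mean in MOG, and P2ry12 overlaps in the 4 groups.

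The homeostatic and the disease-associated members were then set against each other. The median log2 fold change in MOG vs. SHAM was 0.25 in the homeostatic class, 0.80 in the pan-myeloid class and 0.41 in the disease-associated class. The number of members with a log2 fold change above 0 was 9 of 9, 12 of 13 and 9 of 11, and the number called was 1, 1 and 2. The homeostatic median was thus lower than the disease-associated median by 0.154 on the log2 scale. That order was not stable. The homeostatic median was instead higher, by 0.083 with a filter of 1 CPM in 3 libraries and by 0.237 without SHAM replicate 1. Without the members that passed the filter only with MOG counted, the medians were 0.25 in the 9 homeostatic, 0.77 in 11 pan-myeloid and 0.17 in 8 disease-associated members.

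A class score was also computed in each library as the mean log2(CPM + 0.5) of the members tested relative to the SHAM mean, and it is given as a description without a test. The homeostatic score was from -0.09 to 0.06 in the SHAM libraries, from 0.27 to 0.45 in MOG, from 0.32 to 0.44 in GB20, and from 0.23 to 0.51 in GV16. The pan-myeloid score was from -0.10 to 0.16 in the SHAM libraries, from 0.41 to 0.73 in MOG, from 0.27 to 0.69 in GB20, and from 0.19 to 0.59 in GV16. The disease-associated score was from -0.05 to 0.08 in the SHAM libraries, from 0.36 to 0.40 in MOG, from 0.07 to 0.36 in GB20, and from 0.16 to 0.31 in GV16. In the 3 classes the MOG libraries were above the SHAM libraries. The homeostatic and pan-myeloid scores of the needled groups overlapped with those of MOG, whereas the disease-associated scores of GV16 were all below those of MOG. The disease-associated score includes Clec7a, Cst7 and Cd300c2, and the pan-myeloid score Spi1 and Itgam. These members passed the expression filter only with the MOG libraries counted, which favours high MOG values in both scores. No score without them was computed, so MOG above SHAM or GV16 in these classes cannot be read apart from that filter. The homeostatic minus disease-associated score was from -0.05 to 0.09 in the SHAM libraries, from -0.13 to 0.09 in MOG, from 0.08 to 0.25 in GB20, and from -0.01 to 0.26 in GV16. All groups overlapped in this difference, GB20 with SHAM and MOG only in its lowest library, at 0.081.

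**Figure D3:**
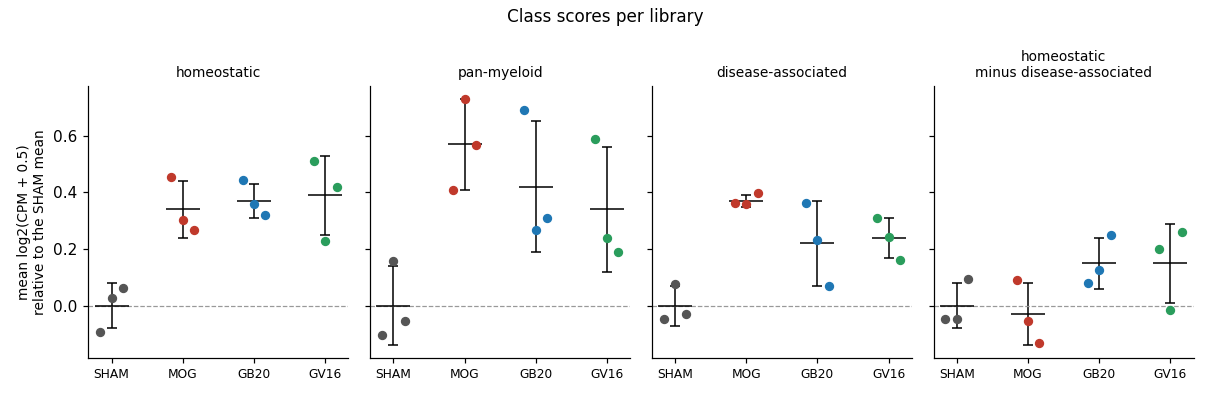
Class score per library (y axis, mean log2(CPM + 0.5) relative to the SHAM mean) by group (x axis) for the 3 classes and for the homeostatic minus the disease-associated score, with points for libraries and bars for the mean ± SD (n = 3). MOG libraries lie above SHAM libraries in the 3 classes and overlap SHAM libraries in the difference of the scores. The pan-myeloid and disease-associated scores include members that passed the expression filter only with the MOG libraries counted.

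To ask whether needling changed these genes, GB20 and GV16 were each compared with MOG. These comparisons share the MOG libraries. No member was called in GB20 vs. MOG, where 0.24% of all genes were called, or in GV16 vs. MOG, where 0.164% were called (edgeR, 0 of 33 members in each). The unadjusted p was under 0.05 in 3 members in GB20 vs. MOG and in 6 in GV16 vs. MOG by edgeR, and in 1 and 2 members by DESeq2, which also called 0 in each. By edgeR it was under 0.05 in 8% and 5.3% of all genes. The median log2 fold change of the members was -0.08 in GB20 vs. MOG and -0.09 in GV16 vs. MOG. In GB20, 4 members had every library below every MOG library, against 7.71% of all genes, and 0 had every library above, against 7.96%. In GV16 those numbers were 4 below, against 6.45% of all genes, and 2 above, against 6.17%. Of the members below MOG, Spi1 and Cd300c2 in both groups and Clec7a in GB20 passed the expression filter only with the MOG libraries counted. Spi1, Clec7a and Cd300c2 were also the 3 members with an unadjusted p under 0.05 in GB20 vs. MOG by edgeR. That selection favours values below MOG for these members. The others below MOG, Sall1 in GB20 and Cd53 and Lgals3 in GV16, passed the filter without MOG. The log2 fold change was above 0 in 12 of the 33 members in GB20 vs. MOG, against 50.2% of all genes. In GV16 vs. MOG it was above 0 in 8 members, against 50.9%. The members were not tested as a set, so these counts are a description.

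Of the 4 members upregulated in MOG vs. SHAM, Ctss and Csf1r overlapped with MOG in both needled groups. Ctss was at 19.7, 13.4 and 13.2 CPM in GB20 and at 17, 16.2 and 14.8 CPM in GV16. Its log2 fold change was -0.09 ± 0.148 in GB20 vs. MOG (adjusted p = 0.896 by edgeR) and -0.05 ± 0.149 in GV16 vs. MOG (adjusted p = 0.998 by edgeR). Csf1r was at 8.29, 8.76 and 8.95 CPM in GB20 and at 9, 8.94 and 9.41 CPM in GV16, with log2 fold changes of -0.08 ± 0.13 and -0.01 ± 0.131 vs. MOG. Cd300c2 was at 0.567, 0.182 and 0.183 CPM in GB20 and at 0.435, 0.386 and 0.372 CPM in GV16, each below the 3 MOG libraries. Its log2 fold change was -1.34 ± 0.491 in GB20 vs. MOG (adjusted p = 0.48 by edgeR) and -1.04 ± 0.483 in GV16 vs. MOG (adjusted p = 0.921 by edgeR). With 1 library left out, the value in GB20 vs. MOG lay between -2.13 and -1.08. Clec7a was at 0.721, 0.426 and 0.365 CPM in GB20, each below the MOG libraries, and at 0.869, 0.386 and 0.372 CPM in GV16, which overlapped with MOG. Its log2 fold changes were -1.02 ± 0.428 and -0.94 ± 0.431. The needled libraries held 6 to 14 Clec7a counts and 3 to 11 Cd300c2 counts each, and these differences did not pass the test. Both genes passed the expression filter only with the MOG libraries counted and were followed here because they were high in MOG. That favours values below the same MOG libraries, and leaving out 1 library does not remove it.

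Other members with separate groups in a needled comparison lay on both sides of MOG. Spi1 was at 0.515, 0.365 and 0.426 CPM in GB20 and at 0.683, 0.321 and 0.31 CPM in GV16, below MOG in each library. The log2 fold change was -1.0 in both, with SE of 0.417 and 0.424 (adjusted p = 0.538 and 0.898 by edgeR). Spi1 passed the expression filter only with the MOG libraries counted, which favours values below MOG. Lgals3 was at 0.869, 1.16 and 0.929 CPM in GV16 against 1.40, 2.21 and 2.04 CPM in MOG (log2 fold change -0.93 ± 0.316, adjusted p = 0.64 by edgeR), the smallest p among disease-associated members in that comparison. Cd53 was below MOG in GV16 with 0.745, 0.771 and 0.619 CPM, and Sall1 was below MOG in GB20 with 1.85, 1.82 and 1.89 CPM. Trem2 and Tmem119 were the members whose GV16 libraries were all above MOG. Trem2 was at 2.79, 3.02 and 2.54 CPM in GV16 and at 3.14, 2.19 and 2.07 CPM in GB20, and its log2 fold change in GV16 vs. MOG was 0.60 ± 0.25 (adjusted p = 0.869 by edgeR). Tmem119 was at 3.54, 2.83 and 2.35 CPM in GV16 (log2 fold change 0.45 ± 0.23, adjusted p = 0.964 by edgeR). Selplg had the smallest homeostatic p in GB20 vs. MOG, with 4.12, 3.71 and 2.80 CPM in GB20 against 3.02, 2.70 and 1.80 CPM in MOG (log2 fold change 0.50 ± 0.247, adjusted p = 0.628 by edgeR).

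**Figure D4:**
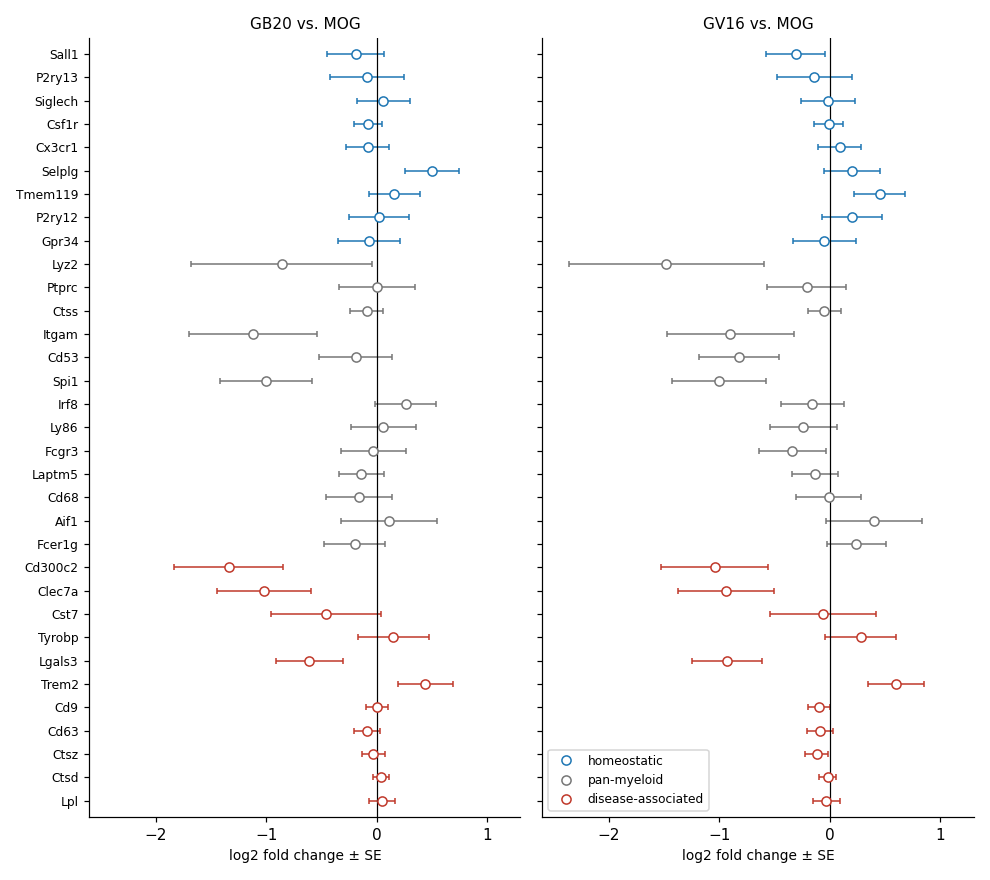
Log2 fold change ± SE (x axis) of the 33 members tested (y axis, in the same order in both panels) in GB20 vs. MOG and GV16 vs. MOG, coloured by class. No point passed the test, and Cd300c2, Clec7a and Spi1 lie between -1.34 and -0.94. These members passed the expression filter only with the MOG libraries counted.

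Both needled groups were also set against SHAM, with the SHAM libraries shared by these comparisons and by MOG vs. SHAM. In GB20 vs. SHAM, Ctss was the member called, with a log2 fold change of 0.89 ± 0.157 (adjusted p = 0.00961 by edgeR), and 0.344% of all genes were called. That call was lost without GB20 replicate 1 or without replicate 1 or 3 of SHAM. In GV16 vs. SHAM, Ctss (0.93 ± 0.158, adjusted p = 0.00483 by edgeR) and Csf1r (0.58 ± 0.136, adjusted p = 0.0469 by edgeR) were called, and 0.656% of all genes were called. Csf1r in GB20 vs. SHAM had a log2 fold change of 0.51 ± 0.136 with an adjusted p of 0.116 by edgeR. The Csf1r call in GV16 vs. SHAM was lost in 17 of 23 alternative fits, each fit without 1 of the 12 libraries included. In 12 members every GB20 library was above every SHAM library, against 5.66% of all genes, and in 12 members every GV16 library was, against 6.86%. In both groups every Lpl library was below SHAM, as the 1 such member, against 7.09% of all genes in GB20 and 7.6% in GV16. Trem2, chosen after its values were seen, was higher than SHAM in each needled library. It differed by 1.01 ± 0.26 on the log2 scale in GV16 vs. SHAM and did not pass the test (adjusted p = 0.0798 by edgeR).

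GB20 and GV16 were compared with each other to ask whether the site of needling mattered for these genes. No member was called, 0 had an unadjusted p under 0.05 by edgeR or DESeq2, against 2.93% of all genes by edgeR, and 0.00546% of all genes were called. Log2 fold changes of the members lay between -0.45 and 0.63, with a median of -0.0009.

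Genes of the same pathways outside the members were counted by list. Of 7 ligands of microglial receptors, 0 were called in MOG vs. SHAM. Among them Il34, made by neurons for CSF1R, was at 6.84, 5.70 and 5.71 CPM in SHAM against 4.65, 3.87 and 4.32 CPM in MOG (log2 fold change -0.50 ± 0.157, adjusted p = 0.143 by edgeR). Csf1, the other CSF1R ligand gene, had a log2 fold change of 0.39 ± 0.226 (adjusted p = 0.487 by edgeR), and between 0.18 and 0.68 with 1 library left out. In the TREM2 and DAP12 signalling chain, 0 of 9 genes were called. Further homeostatic microglia genes gave 0 of 12. Among other myeloid genes, 1 of 16 was called, the complement gene C1qa, at 4.90, 5.82 and 2.55 CPM in SHAM against 7.50, 8.73 and 10.1 CPM in MOG (log2 fold change 0.99 ± 0.236, adjusted p = 0.0451 by edgeR). That call was lost in 12 of 23 alternative fits, including those without SHAM replicate 1, SHAM replicate 3 or any 1 MOG library. The median of those 16 genes was 0.71, and 15 had a log2 fold change above 0, against 49.5% of all genes tested. In the further homeostatic genes the median was 0.04, with 8 of 12 above 0. In the TREM2 and DAP12 chain the median was 0.23, with 6 of 9, and in the ligands -0.18, with 3 of 7.

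Of 14 other disease-associated genes, with a median log2 fold change of 0.06 and 8 above 0, Gpnmb was called in MOG vs. SHAM. Gpnmb encodes a lysosomal glycoprotein of phagocytes that pigment cells also express. It was at 3.39, 2.65 and 3.22 CPM in SHAM, at 9.23, 12.1 and 11 CPM in MOG, at 3.30, 2.80 and 3.59 CPM in GB20 and at 6.95, 9.13 and 6.75 CPM in GV16. Its log2 fold change was 1.80 ± 0.171 in MOG vs. SHAM (adjusted p = 1.57e-06 by edgeR) and -1.73 ± 0.17 in GB20 vs. MOG (adjusted p = 5.49e-06 by edgeR). Of the 3 GB20 libraries, 2 lay within the SHAM range, and the GV16 libraries lay between those of MOG and GB20, with a log2 fold change of -1.23 ± 0.175 in GB20 vs. GV16 (adjusted p = 0.00697 by edgeR). The last call was lost without GB20 replicate 1, GB20 replicate 2 or GV16 replicate 2.

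Markers of other cell types were summed per library. Monocyte and neutrophil markers were near absent, with 9 of 13 genes at 12 counts or fewer over the 12 libraries, and Ly6g and Mmp8 at 0. Their sum was between 1.29 and 2.27 CPM in SHAM and between 2.04 and 3.07 CPM in MOG, most of it from Arg1 and Camp. T and B cell markers summed to between 1.78 and 2.41 CPM in SHAM and between 2.03 and 3.42 CPM in MOG, with Ms4a1 at 0. Markers of border and perivascular macrophages were between 15.7 and 16.7 CPM in SHAM and between 16.1 and 18.2 CPM in MOG. Lyve1, which vessels also express, made up most of that sum, and the defining markers Mrc1 and Cd163 had 21 and 10 counts in all. Markers of retinal ganglion cells were downregulated in MOG vs. SHAM, 7 of 7 by edgeR, against 141 of 18299 genes tested. They summed to between 350 and 418 CPM in MOG against 607 to 681 CPM in SHAM. The study had reported Pou4f1, Isl2 and Sncg among them as downregulated in the same data, so the count is a description.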

How the data were processed

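Retinal RNA of 12 mouse samples was sequenced by the authors, who aligned reads with HISAT2 2.0.5 (mm10, per the submitters' processing notes) and counted them with FeatureCounts. They deposited whole-number counts per gene without normalization, and FPKM values that the authors computed from gene length and count. Neither the annotation release nor the strand setting is given in the sources used here. Groups and replicate numbers came from the labels. Symbols, coordinates and exon overlaps came from GENCODE vM21 on GRCm38. Members, lists and tests were chosen with earlier results of these data known. Class borders followed the order of the member list.

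Counts of all 12 libraries were fitted in edgeR 4.0.16 (R 4.3.3; expression filter, TMM, robust quasi-likelihood, 1 mean per group, 8 residual degrees of freedom). A gene was called, or upregulated or downregulated, at a Benjamini-Hochberg adjusted p under 0.05 over the 18299 genes tested. Log2 fold changes were given for members called in any of 6 comparisons, with the smallest p in their class or with separate MOG and SHAM libraries, and for a few others as descriptions. Other genes were named when called, or as markers or receptor ligands, and Il34 and Csf1 were chosen after their values were seen. Alternatives used DESeq2 1.42.0, limma 3.58.1 (voom, and log2(FPKM + 1) or log2(FPKM + 0.1)), other filters, size factors, a length offset, a replicate block and each library left out. Counting only members that passed the filter without MOG was added after seeing the data. Promoter windows came from RefSeq. Total counts ranged from 15860278 to 19194280 per library, and no library was thinned. Proteins were not analysed here.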

Additional observations from a re-analysis of the deposited data

Results flagged for a closer look

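Gpnmb, a disease-associated gene outside the members, differed between the needling sites in a direct test, with a log2 fold change of -1.23 in GB20 vs. GV16 (adjusted p = 0.00697 by edgeR, 3 libraries in each group). Every GB20 library was below every GV16 library.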

How the results depend on the processing

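Of 893 alternative values of 40 gene fold changes, 827 kept their direction and their side of the threshold, 57 lost the call, 2 gained one and 7 changed sign. Many of the 40 were not called in the reported fit and could not lose a call. The 827 are therefore no measure of how stable the calls were. Csf1r lost its call in 7 of 23 alternatives in MOG vs. SHAM and in 17 of 23 in GV16 vs. SHAM. Ctss in MOG vs. SHAM and in GV16 vs. SHAM kept its call in all 23 alternatives, and so did Gpnmb in MOG vs. SHAM and GB20 vs. MOG. In MOG vs. SHAM, 4 members were called in the reported fit. With DESeq2 on all 12 libraries 2 were called, with a filter of 1 CPM in 3 libraries 2, with DESeq2 on the 6 libraries compared 1, and with limma on log2(FPKM + 1) 2. Leaving out 1 library gave 1 to 4 calls, with 1 without MOG replicate 3, and 2 without either other MOG library or SHAM replicate 1. In GB20 vs. SHAM, 2 members were called without an expression filter (Ctss and Irf8), 0 with limma on either FPKM scale, and 0 to 1 with a library left out, with 0 without GB20 replicate 1 or without replicate 1 or 3 of SHAM. In GV16 vs. SHAM, 1 member was called with edgeR or DESeq2 on the 6 libraries compared, limma-voom or limma on either FPKM scale, and 1 without any of the 12 libraries. The replicate block gave 4 calls in MOG vs. SHAM and moved no count of members by over 1.5 times. Libraries with the same number correlated between -0.0966 and 0.286 over 18 pairs, with 3 over 0.1. Even so, 11 of 12 libraries had their best partner in another group under their own number. The methods describe repeats of the whole experiment, but the labels do not tie the numbers to them. Whether the numbers mark repeats was therefore not settled. The reported fit took no pairs, and the block served as an alternative.

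Counting only members that passed the filter without the MOG libraries, an alternative chosen after seeing the data, gave 2 calls in MOG vs. SHAM, a disease-associated median of 0.168 and a homeostatic minus disease-associated difference of 0.084. Class medians in MOG vs. SHAM moved with the pseudocount and the libraries. The homeostatic median was 0.123 with limma on log2(FPKM + 1) and 0.191 to 0.489 with a library left out. The pan-myeloid median was 0.26 and 0.602 with limma on log2(FPKM + 1) and log2(FPKM + 0.1), and 0.648 to 0.858 with a library left out. The disease-associated median was 0.181 with the 1 CPM filter, 0.315 with edgeR on 6 libraries, 0.203 and 0.289 with limma on log2(FPKM + 1) and log2(FPKM + 0.1), and 0.183 to 0.525 with a library left out. The homeostatic minus disease-associated median was 0.083 with the 1 CPM filter and -0.181 to 0.237 with a library left out. In GV16 vs. MOG, the homeostatic median was -0.033 to 0.14 and its difference from the disease-associated median 0.065 to 0.202 with a library left out. Changes of sign were Csf1r in GV16 vs. MOG (0.00 with limma on log2(FPKM + 0.1), and -0.08 to 0.07 with a library left out), Ctss in GB20 vs. MOG (-0.32 to 0.00) and Ctss in GV16 vs. MOG (-0.14 to 0.03). The cause was not tested, beyond the fewer genes or samples of an alternative. Trem2 in GV16 vs. SHAM was called without an expression filter (adjusted p = 0.0299 by edgeR) and Sall1 in MOG vs. SHAM without SHAM replicate 3 (adjusted p = 0.0499 by edgeR). In GB20 vs. GV16, the Gpnmb call was lost in 5 of 23 alternatives, both limma fits on FPKM among them. Depth limited the members with few counts: Clec7a, Cd300c2, Cst7 and Itgax had 11, 7, 8 and 2 counts over the 3 SHAM libraries.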
